A study of Homo sapiens with 2 samples.

Results

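The TAM family consists of the receptor tyrosine kinases AXL, MERTK and TYRO3 and their ligands GAS6 and PROS1 (protein S), and these 5 genes were examined in gefitinib-treated H322c cells. They were chosen by gene name, as every probe set of the expression array annotated to 1 of the 5 genes alone, which gave 10 probe sets. The array table paired 19775 genes in all with at least 1 such probe set. H322c is an established NSCLC (non-small cell lung cancer) line, and gefitinib is an inhibitor of the tyrosine kinase of EGFR. The tested cells had 1 µM gefitinib for 4 days and the control cells 0.1% DMSO for 4 days, both in RPMI medium with serum and both from cells plated 24 hrs earlier. Total RNA of each culture was hybridized to an Affymetrix U133 Plus 2.0 array, 1 array per condition. With 1 array per condition no test was possible, and each difference describes these 2 arrays. Precision is limited by how few arrays there are.

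TAM receptors are single-pass membrane kinases whose ectodomain carries immunoglobulin-like and fibronectin type III domains. Their ligands bridge the receptor to phosphatidylserine on the outer leaflet of dying cells, membrane vesicles and platelets, and this bridging needs gamma-carboxylated glutamate residues (the Gla domain) that are made in a vitamin K-dependent step. GAS6 binds all members of the receptor family and PROS1, which is also a plasma anticoagulant, binds TYRO3 and MERTK. In macrophages and retinal pigment epithelium the family drives engulfment of dead cells and dampens inflammation. In lung cancer cells AXL is known for its association with a mesenchymal state and with resistance to EGFR inhibitors.

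The start-site sequences of the members are shown because all 5 members had a higher signal on the gefitinib array. RefSeq gives 7 windows of GRCh38.p14 for the 5 genes, and the 250 bases before each start site were searched for 6 short motifs on both strands. The sequences below are those of the 4 genes with a measured probe set at least 2-fold higher, with GC boxes, the letters bound by SP1 and related zinc finger proteins (GGGCGG or, on the other strand, CCGCCC), in capitals. The AXL window is chr19:41218973-41219222 (plus strand), the MERTK window is chr2:111898357-111898606 (plus strand), the GAS6 window is chr13:113864077-113864326 (minus strand) and the PROS1 window is chr3:93973897-93974146 (minus strand).
AXL: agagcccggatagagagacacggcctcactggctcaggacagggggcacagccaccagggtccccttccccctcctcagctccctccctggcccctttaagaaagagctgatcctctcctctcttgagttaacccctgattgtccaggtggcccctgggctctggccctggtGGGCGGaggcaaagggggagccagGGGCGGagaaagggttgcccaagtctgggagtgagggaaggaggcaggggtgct
MERTK: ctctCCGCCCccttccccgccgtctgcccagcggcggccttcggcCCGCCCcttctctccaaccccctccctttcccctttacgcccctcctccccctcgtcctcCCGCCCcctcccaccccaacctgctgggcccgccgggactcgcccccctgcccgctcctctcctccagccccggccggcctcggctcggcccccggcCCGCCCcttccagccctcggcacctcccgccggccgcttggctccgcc
GAS6: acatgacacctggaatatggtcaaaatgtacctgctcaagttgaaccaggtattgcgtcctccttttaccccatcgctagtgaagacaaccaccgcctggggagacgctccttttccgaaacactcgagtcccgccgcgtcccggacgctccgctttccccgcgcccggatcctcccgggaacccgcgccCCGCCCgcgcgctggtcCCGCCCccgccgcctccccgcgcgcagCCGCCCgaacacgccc
PROS1: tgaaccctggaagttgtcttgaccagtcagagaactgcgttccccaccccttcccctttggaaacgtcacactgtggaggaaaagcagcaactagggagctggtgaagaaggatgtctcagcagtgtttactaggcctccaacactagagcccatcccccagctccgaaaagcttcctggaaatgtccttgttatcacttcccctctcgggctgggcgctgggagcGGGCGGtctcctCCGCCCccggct
The GC box was found in 5 of the 7 windows and in at least 1 window of each of the 5 genes, against 42.6% of all 35116 RefSeq windows of this length. Windows rich in G and C hold this motif more easily, and GC content was 64.4% for the AXL window, 78.8% for MERTK, 66.8% for GAS6 and 57.6% for PROS1, against a median of 58% over all windows. AXL had 2 GC boxes, MERTK 4, GAS6 3 and PROS1 2. The first TYRO3 window, which is not printed, had 3 GC boxes and a GC content of 80%. The second windows of AXL and TYRO3, at start sites further downstream, had none. The forkhead motif GTAAACA was found in the PROS1 window, between 126 and 120 bases before the start site, and in no other member window, against 2.98% of all windows. For AP-1 the letters TGANTCA were searched with any base at N, which is wider than the AP-1 site with C or G there. They were found in the first TYRO3 window, as TGAATCA, and in no other (6.57% of all windows). With A in the middle this match is not an AP-1 site. The TEAD motif GGAATG and the ETS motif CCGGAA were each found in the second AXL window and no other (11.9% and 14.5% of all windows). The E-box CANNTG was found in 4 of the 7 windows, against 61.8% of all windows. The narrower letters bound by SNAI2, CAGGTG or CACCTG, were found in the first AXL window and the GAS6 window only. Their share over all windows was not counted. A match describes letters in a window and does not show that a factor binds there.

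The deposited values are MAS5 signals, linear intensities per probe set, with the 2% trimmed mean at 500.1 on each array. Signals under 100 were set to 100, a probe set was called measured where it reached this floor on at least 1 array, and a gene with several measured probe sets was represented by the brightest. Of 11223 measured genes, 1491 were at least 2-fold higher on the gefitinib array (13.3%) and 696 at least 2-fold lower (6.2%), together 19.5%, and the median log2 ratio of gefitinib over DMSO was 0.12. Genes higher with gefitinib made up 68.2% of those past 2-fold, and between 48.2% (scaling to spike-ins) and 85.6% (scaling to GAPDH) under other scalings. As a measure of spread, log2 ratios of single probe sets had an SD of 0.58 around the mean of their gene, over the 5432 genes with several. A difference between 2 probe sets has a wider spread than that. This SD holds nothing of the spread between cultures. Of 8 transcripts known to follow ERK signaling, 6 were at least 2-fold lower on the gefitinib array, ETV5 (at least 36.8-fold), PHLDA1 (30.4-fold), DUSP6 (at least 29.1-fold), SPRY4 (11.9-fold), ETV4 (7.89-fold) and DUSP4 (6.31-fold). All 8 epithelial markers reached the floor on each array. None of the 7 leukocyte and macrophage markers with a probe set and none of the 6 hepatocyte markers reached the floor on either array.

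All 5 TAM genes were measured, and all 5 had a higher signal on the gefitinib array, where 57% of all measured genes had a ratio above 1. At least 2-fold higher were 3 of the 5 (AXL, PROS1 and MERTK), against 13.3% of all measured genes, and none was at least 2-fold lower. The median log2 ratio of the 5 genes was 1.00, against 0.12 over all measured genes. The 3 receptors are among the selected tyrosine kinases that the study listed from these arrays, so they are not independent evidence of a direction. The count of 3 moved with the scaling. It was 1 with quantile normalization, lowess correction or scaling to the hybridization spike-ins, in each case AXL, and 5 with scaling to GAPDH. The number of all measured genes at least 2-fold higher moved too, from 1491 as deposited. It was 1204 with quantile normalization, 1140 with lowess correction, 998 with spike-in scaling and 2397 with scaling to GAPDH.

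**Figure D1:**
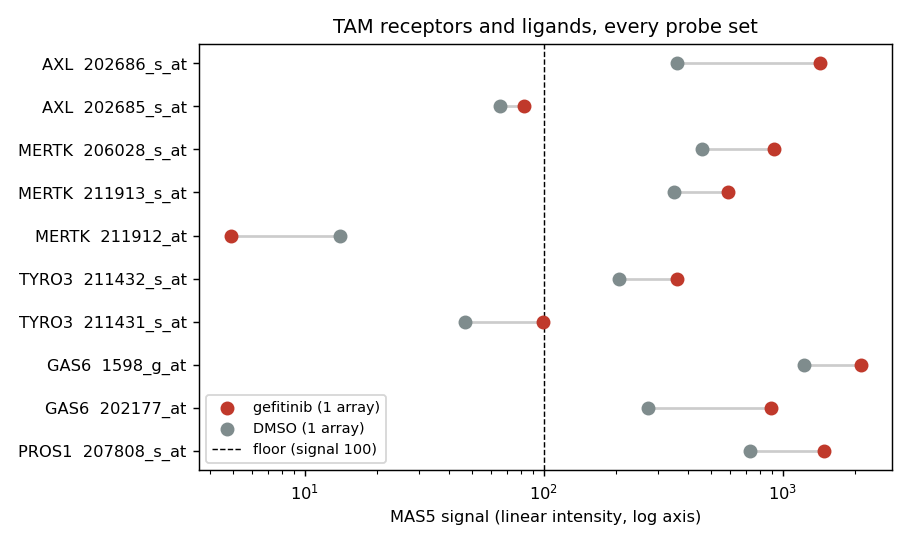
MAS5 signal (horizontal log axis, linear intensity) of the 10 TAM probe sets on the gefitinib array (red) and the DMSO array (grey), 1 array per condition, with the floor of 100 dashed. The red point lies to the right of the grey one at each of the 7 probe sets that reached the floor, and AXL 202686_s_at has the widest gap among these 7.

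AXL, the receptor with the highest affinity for GAS6, had the highest ratio of the family. Its signal at 202686_s_at was 1424.4 with gefitinib and 360.8 with DMSO, 3.95-fold higher (log2 ratio 1.98). This ranked AXL at 263 of the 11223 measured genes, with 97.7% of them at a lower ratio. The second AXL probe set, 202685_s_at, did not reach the floor, at 82.4 with gefitinib and 65.2 with DMSO, so that the AXL value rests on a single probe set. Across the scalings tried the AXL ratio ran between 3.40-fold and 4.79-fold, and it was past 2-fold in all 12 settings that gave a ratio. Floors of 50 and 200 and the other ways to choose the probe set left the log2 ratio at 1.98 and were no test of it.

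MERTK, the receptor best known for engulfment of dead cells, was on the 2-fold line. At 206028_s_at its signal was 917.5 with gefitinib and 458.4 with DMSO, 2.00-fold higher (log2 ratio 1.00), and 86.7% of measured genes had a lower ratio. At 211913_s_at it was 588.2 with gefitinib and 349.4 with DMSO, 1.68-fold higher (log2 ratio 0.75). These 2 probe sets went in the same direction and differed by 0.25 in log2 ratio, less than the spread between probe sets of a gene. The third, 211912_at, was far below the floor, with 4.9 with gefitinib and 14.1 with DMSO, and gives no ratio. Over the scalings MERTK ran between 1.72-fold and 2.43-fold, and it reached 2-fold in 7 of 12 settings. Floors of 50 and 200 and the probe set with the highest signal left the log2 ratio at 1.00, while the mean over measured probe sets gave 0.88.

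TYRO3, the third receptor, known mainly from brain and platelets, was within 2-fold. At 211432_s_at its signal was 359.0 with gefitinib and 205.3 with DMSO, 1.75-fold higher (log2 ratio 0.81). At 211431_s_at it was 98.7 with gefitinib and 46.8 with DMSO, both under the floor, the gefitinib signal just under it. TYRO3 was between 1.49-fold and 2.12-fold higher over the scalings, and it passed 2-fold in 1 of 12 settings, scaling to GAPDH.

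GAS6, the ligand of all TAM receptors, had a pair of measured probe sets that differed in size. At 1598_g_at, the brighter, its signal was 2116.4 with gefitinib and 1227.3 with DMSO, 1.72-fold higher (log2 ratio 0.79). At 202177_at it was 894.1 with gefitinib and 271.7 with DMSO, 3.29-fold higher (log2 ratio 1.72). The log2 ratios differed by 0.93, and whether GAS6 counts as past 2-fold depends on which is taken. The SD of 0.58 is that of single probe sets, so it does not place a difference of 0.93 outside the usual spread. With the mean over both probe sets its log2 ratio was 1.25, and the genes past 2-fold were then AXL, GAS6 and PROS1, without MERTK. At its brightest probe set GAS6 ran between 1.49-fold and 2.09-fold over the scalings.

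PROS1, protein S, is represented by a single probe set. At 207808_s_at its signal was 1487.1 with gefitinib and 727.6 with DMSO, 2.04-fold higher (log2 ratio 1.03), and 87.3% of measured genes had a lower ratio. PROS1 has a nearly identical pseudogene, so part of this signal could come from another locus. Over the scalings PROS1 ran between 1.76-fold and 2.48-fold, and it reached 2-fold in 8 of 12 settings. Floors of 50 and 200 and the other ways to choose the probe set left its log2 ratio at 1.03 and were no test of it.

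By log2 ratio the order was AXL (1.98), PROS1 (1.03), MERTK (1.00), TYRO3 (0.81) and GAS6 (0.79). The step from AXL to PROS1 was 0.95. The SD of 0.58 between probe sets of a gene is that of single probe sets, so it does not gauge such a step. At their brightest probe sets the 4 genes after AXL lay within 0.25 of each other. With 1 array per condition their order cannot be read from these arrays, and the place of AXL has no replicate either. GAS6 had 1.72 at its other measured probe set and 1.25 as the mean over both, so its place depends on the probe set. Signals of different probe sets depend on their probes, so no order of abundance among the members is given. At probe set level 4 of the 7 measured TAM probe sets were at least 2-fold higher, against 12.1% of the 20172 measured probe sets of a single gene, and none was at least 2-fold lower, against 7.26% (19.4% in either direction). All 7 had a ratio above 1, against 55% of measured probe sets.

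**Figure D2:**
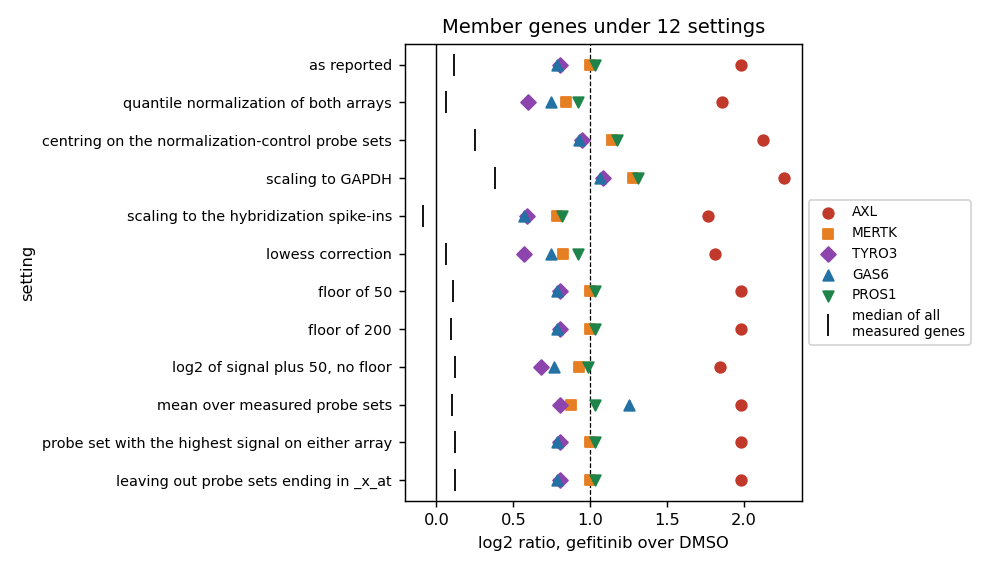
Log2 ratio of gefitinib over DMSO (horizontal axis) of the 5 TAM genes under 12 settings (rows), with the median of all measured genes as a black tick and 2-fold as a dashed line. AXL stays to the right of the dashed line in all 12 rows, while the other 4 genes lie near it, and the whole row shifts with the black tick where 1 factor scales all genes (GAPDH, spike-ins, control probe sets).

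Some of these scalings moved all genes together. The median log2 ratio of all measured genes was 0.38 with scaling to GAPDH and -0.09 with scaling to the spike-ins. Relative to the median of the same setting, the log2 ratio of AXL was 1.86 as deposited and between 1.73 and 1.89 over the 12 settings. It was between 0.76 and 0.91 for MERTK, 0.51 and 0.71 for TYRO3, 0.64 and 1.15 for GAS6, and 0.86 and 0.94 for PROS1. All 5 were above the median of all genes in every one of these settings.

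Among receptor tyrosine kinases, 30 of 58 were measured, 27 of them outside the TAM family. Of these 27, 6 were at least 2-fold higher and 3 at least 2-fold lower on the gefitinib array, where the shares over all measured genes were 13.3% and 6.2%, and their median log2 ratio was 0.31. At the floor of 100, AXL had the third highest ratio of the 30, after FGFR2 (10.9-fold higher) and the ephrin receptor EPHA4 (at least 4.12-fold higher, and 1.17 on the log2 scale as the mean over its probe sets). The other kinases at least 2-fold higher were FGFR3 (3.56-fold), ERBB2 (2.37-fold), INSR (2.27-fold) and EPHA10, which had 235.4 with gefitinib and 36.9 with DMSO and so has only a bound of at least 2.35-fold. With a floor of 50 the bound of EPHA10 was 2.24 on the log2 scale, above the 1.98 of AXL, so the place of AXL depends on the floor. With bounds taken at their value, MERTK had 6 kinases outside the family above it and TYRO3 had 8. The 3 kinases with the log2 ratio closest to AXL, among the 21 outside the family that reached the floor on each array, were FGFR3 (1.83), ERBB2 (1.24) and the insulin receptor INSR (1.18). For MERTK they were PTK7 (0.94), ERBB3 (0.92) and INSR, and for TYRO3 they were IGF1R (0.78), ERBB3 and PTK7. For the ligand GAS6 they were IGF1R, ERBB3 and EGFR (0.65), and for PROS1 they were PTK7, ERBB3 and INSR. The 5 measured probe sets of EGFR ran from -1.29 to 2.93 in log2 ratio and the 3 of IGF1R from -0.25 to 0.78. The 3 of ERBB3 ran from -0.17 to 0.94. The 5 of INSR ran from 0.50 to 1.20, with a mean of 0.88, under the 2-fold line. The closeness of these kinases to the members depends on which probe set is taken. With only 2 arrays such likeness is a single ratio and describes no shared pattern. At least 2-fold lower were MET (3.68-fold), EPHA2 (2.88-fold) and the MET relative MST1R (2.78-fold).

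**Figure D3:**
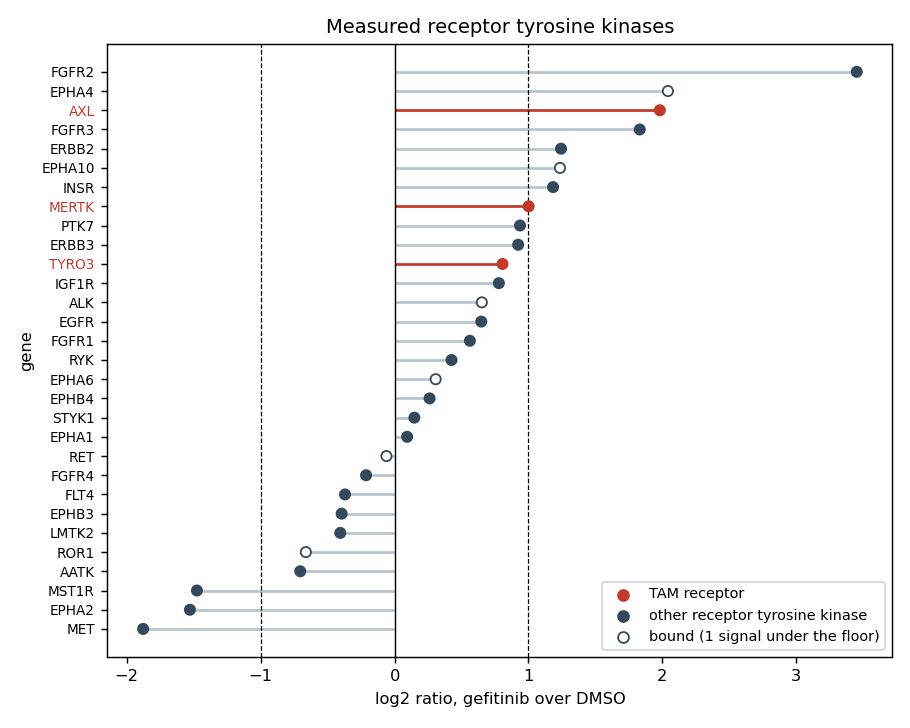
Log2 ratio of gefitinib over DMSO (horizontal axis) of the 30 measured receptor tyrosine kinases at their brightest probe set, sorted, with TAM receptors in red, open points for bounds and dashed lines at 2-fold. AXL (1.98) has the third highest value, MERTK (1.00) on the dashed line and TYRO3 (0.81) just left of it.

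No gene of the list for maturation of GAS6 and PROS1 had a measured ratio or bound of 2-fold at its brightest probe set, of 9 measured genes, where 19.5% of all measured genes did. The median log2 ratio was -0.18. The proprotein convertase PCSK5 had 193.2 with gefitinib and 98.1 with DMSO, a bound of at least 1.93-fold higher, so whether it is past 2-fold cannot be told. The number at least 2-fold higher was 1 with centring on control probe sets and 2 with scaling to GAPDH, and with scaling to the spike-ins 1 was at least 2-fold lower. GGCX, the gamma-glutamyl carboxylase that makes the Gla residues, had 1716.1 with gefitinib and 2630.7 with DMSO (log2 ratio -0.62), but its 5 probe sets ran from -0.80 to 1.96. VKORC1, which recycles vitamin K for it, had a log2 ratio of -0.31, and its relative VKORC1L1 had 0.83. ASPH, which hydroxylates EGF-like domains, had -0.87, and CALU, an inhibitor of the carboxylase, had -0.18. FURIN, another proprotein convertase, had -0.32.

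Other Gla proteins showed values in both directions. The transmembrane Gla proteins PRRG4 (3854.7 with gefitinib and 1327.4 with DMSO, 2.90-fold higher) and PRRG2 (690.8 with gefitinib and 271.4 with DMSO, 2.55-fold higher) were past 2-fold, 2 of 4 measured genes, against 13.3% of all measured genes. PRRG1 had a log2 ratio of -0.56, and the matrix Gla protein MGP was at least 1.53-fold lower. The vitamin K-dependent clotting factors F2, F7, F9 and F10, protein C (PROC) and PROZ did not reach the floor. Of 6 genes for partners of protein S in blood clotting, only PROCR, the protein C receptor, was measured, and it was at least 1.42-fold lower.

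AXL and MERTK are released from the cell surface by metalloproteases, and the membrane stub of AXL is then cleaved by gamma-secretase. The proteases ADAM10 (log2 ratio 0.37) and ADAM17 (0.47) were within 2-fold, and so were the TIMP2 inhibitor (0.68) and RHBDF1 (0.21), which helps ADAM17 to mature. Of 5 measured gamma-secretase subunits, 2 were past 2-fold, APH1B with 445.2 with gefitinib and 127.4 with DMSO (3.49-fold higher) and NCSTN with 2306.8 with gefitinib and 1086.8 with DMSO (2.12-fold higher). The other subunits APH1A, PSEN2 and PSENEN had log2 ratios of 0.45, 0.29 and -0.47. TIMP1, a metalloprotease inhibitor, was 2.25-fold lower. Over the scalings the log2 ratio of NCSTN ran between 0.87 and 1.36 and that of TIMP1 between -1.39 and -0.89, so both crossed the 2-fold line. Of 11 measured genes of the list, 2 were higher and 1 lower by at least 2-fold, close to the 13.3% and 6.2% over all measured genes, and the median log2 ratio was 0.37.

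Of 24 measured adaptors and effectors that TAM receptors use, 4 were at least 2-fold higher and 1 at least 2-fold lower, close to the 13.3% and 6.2% over all measured genes, and the median log2 ratio was 0.38. VAV3 had 4196.5 with gefitinib and 1435.8 with DMSO (2.92-fold higher), and its relative VAV2 was 2.02-fold higher. SOS1, the exchange factor for RAS, was 2.56-fold higher at its brightest probe set, and IFNAR1, the interferon receptor chain through which TAM receptors act in dendritic cells, was at least 3.90-fold higher. Several of these values changed with the mean over probe sets, which gave log2 ratios of 0.09 for SOS1, 0.62 for VAV2, 1.14 for VAV3 and 0.94 for IFNAR1. SOCS3, a suppressor of cytokine signaling that TAM receptors are known to induce in immune cells, had 111.7 with gefitinib and 467.4 with DMSO, 4.18-fold lower, with -1.51 as the mean over probe sets. RAC1 (log2 ratio -0.33), the kinase PTK2 (0.35) and the adaptor SHC1 (-0.74) were within 2-fold at their brightest probe sets. The measured probe sets of PTK2 ran from -1.89 to 0.39 and those of SHC1 from -1.51 to -0.74, so each had 1 past 2-fold lower.

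**Figure D4:**
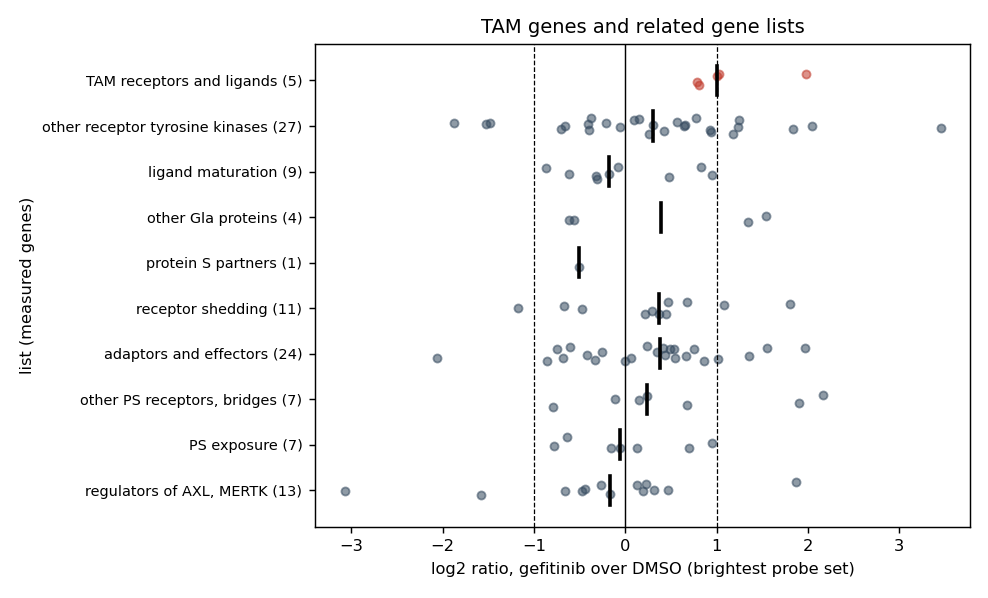
Log2 ratio of gefitinib over DMSO (horizontal axis) at the brightest probe set of each measured gene (points) in the TAM family (red) and 9 related lists, with measured genes counted in parentheses, list medians as black bars and 2-fold as dashed lines (PS is phosphatidylserine). The TAM median is 1.00 and those of the other 9 lists lie between -0.50 and 0.40.

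Other receptors and bridging molecules for phosphatidylserine were mostly not measured, with 13 of 20 not reaching the floor on either array, among them TIMD4, HAVCR1, STAB1, STAB2 and MEGF10. Of the 7 measured, 2 were past 2-fold (1 with a floor of 200), against 19.5% of all measured genes. THBS1, thrombospondin, a bridging molecule, had 1952.7 with gefitinib and 436.2 with DMSO, 4.48-fold higher, and its 3 measured probe sets ran from 1.88 to 3.64 in log2 ratio. LRP1, a large endocytic receptor, was at least 3.74-fold higher, with 373.7 with gefitinib and 99.4 with DMSO, and 0.53 on the log2 scale at its other measured probe set. MFGE8, which bridges phosphatidylserine to integrins, had a log2 ratio of 0.24, the integrin chains ITGAV and ITGB5 had 0.67 and -0.79, and LGALS3, a galectin described as a MERTK ligand, had 0.15. Of 7 measured genes for phosphatidylserine exposure, none was past 2-fold at its brightest probe set, where 19.5% of all measured genes were. The number at least 2-fold higher was 1 with centring on control probe sets and 1 with scaling to GAPDH. The probe sets of ATP11B ran from -1.78 to 0.78 in log2 ratio. TMEM30A, the chaperone of the flippases, had a log2 ratio of 0.70, the scramblase ANO6 -0.05, PLSCR1 -0.16 and the flippase ATP8B1 0.12.

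Transcription factors described as regulators of AXL or MERTK did not share a direction. Of 13 measured, 1 was at least 2-fold higher and 2 at least 2-fold lower, against 13.3% and 6.2% of all measured genes, and the median log2 ratio was -0.17. The AP-1 subunit FOSL1 had 86.3 with gefitinib and 838.6 with DMSO, at least 8.39-fold lower. JUN, its partner, was 2.99-fold lower at its brightest probe set, and its 4 probe sets averaged -0.99 in log2 ratio. SNAI2, an E-box repressor of epithelial genes, had 835.3 with gefitinib and 228.5 with DMSO, 3.66-fold higher. YAP1 (0.47), TEAD1 (0.23), HIF1A (-0.44), SP1 (-0.66) and SP3 (0.20), given as log2 ratios, were within 2-fold, and ZEB1 did not reach the floor. The first AXL window printed above holds GC boxes and 1 E-box and no AP-1 motif. The second AXL window holds 2 E-boxes, CACATG and CAGATG, which are not the letters bound by SNAI2. It holds neither a GC box nor an AP-1 motif, and 61.8% of all windows hold an E-box. Whether any of these factors acts on AXL in these cells was not tested.

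Markers of cell types that are known to express TAM genes were checked beside these values. Fewer cells of a type and less RNA per cell cannot be told apart in such bulk RNA. The summed signal of 8 fibroblast markers was 1091.3 with gefitinib and 710.0 with DMSO, and 1 of the 8 reached the floor on either array, COL1A1 with 950.2 with gefitinib and 420.8 with DMSO. Of 9 endothelial and platelet markers 1 reached the floor on each array, VWF with gefitinib (496.0, against 30.0 with DMSO) and PECAM1 with DMSO (128.4, against 78.0 with gefitinib), with sums of 714.4 and 402.8 on the gefitinib and DMSO arrays. The other members of both lists, among them PDGFRB, DCN, COL3A1, CDH5, KDR and PF4, reached it on neither array. Of 4 melanocyte markers with a probe set, MITF had 246.4 with gefitinib and 157.2 with DMSO, and PMEL had 133.8 with gefitinib and 55.9 with DMSO, while the other members of that list stayed under 100. Both arrays are labelled as the H322c line, and the paper describes no other cell type in the cultures used for them. The part of other cells in the TAM values was not tested.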

How the data were processed

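Values deposited by the authors were linear MAS5 intensities, 1 column for each of the 2 Affymetrix U133 Plus 2.0 arrays (54675 probe sets). MAS5 is named in the submitters' processing notes (version not given in the sources used here). Because it scales every array by 1 factor, transcripts that shifted together would be pulled back to the same trimmed mean. No detection calls were used. The platform annotation paired 41097 probe sets with 1 gene and 1801 with several, and did not list 11777. Symbols were updated through gene identifiers of GRCh38.p14 (41043 matched). A floor of 100 was applied, and each gene's log2 ratio of gefitinib over DMSO came from its brightest probe set by mean log2 signal. Genes with a ratio of 2 or more in either direction were counted, and a fold against a floored signal is given as at least N-fold.

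No p-value could be computed from 1 array per condition. The text names all members with every probe set, list genes past 2-fold, up to 3 of the brightest others of a list, and the 3 kinases closest in log2 ratio to each member. Further list genes that were within 2-fold or under the floor were named after their values were seen. Members and lists were chosen with earlier results of these data known. Alternatives were scaling by quantiles, normalization-control probe sets, GAPDH or spike-ins, lowess (span 0.3), a floor of 50 or 200, log2 of signal plus 50, other ways to choose the probe set, and a threshold of 1.5 or 3. The ratio calculation was tested on simulated data with 1 probe set per gene and nearly all signals above the floor. That simulation did not exercise the floor, the choice among probe sets or the scalings. Promoter windows are from RefSeq (GRCh38.p14), where all 5 genes matched. Python 3.11.15, numpy 2.4.6, pandas 2.3.3, statsmodels 0.14.6 and matplotlib 3.10.9 were used.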

Additional observations from a re-analysis of the deposited data

How the results depend on the processing

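The log2 ratios of the 5 TAM genes kept their sign in all 12 settings that gave a ratio, and each moved by less than the SD of 0.58 between probe sets of a gene. For AXL, TYRO3 and PROS1 floors of 50 and 200 and the choice of probe set changed nothing, so those settings were no test of them. The number of TAM genes (and of TAM probe sets) at least 2-fold higher was 3 (4 probe sets) as deposited, 1 (2) with spike-in scaling, quantile normalization, log2 of signal plus 50 or lowess correction, and 5 (7) with scaling to GAPDH. With a threshold of 1.5 it was 5 (7), and with a threshold of 3 it was 1 (2). It was 3 with the other settings, and no TAM gene was at least 2-fold lower in any. AXL was the gene left wherever the count at 2-fold was 1. Over all measured genes, scaling to GAPDH gave 2397 higher and 404 lower, spike-in scaling 998 higher and 1071 lower, a threshold of 1.5 gave 2961 and 1675, and a threshold of 3 gave 536 and 230. Genes higher on the gefitinib array made up 68.2% of those past 2-fold as deposited, 48.2% with spike-in scaling, 57.6% with lowess correction, 59.7% with quantile normalization, 78.3% with centring on control probe sets and 85.6% with scaling to GAPDH. Over the related lists, 24 genes passed 2-fold as reported, 52 genes passed a threshold of 1.5 and 11 a threshold of 3. Of all measured genes 19.5% passed 2-fold. The list counts are given only for how they move with the threshold and are no result about the lists. The cause of these differences was not tested. No paired analysis was possible because each condition has 1 array and no test was made, and for the same reason no replicate could be left out. AXL 202685_s_at and TYRO3 211431_s_at were under the floor on both arrays, MERTK 211912_at far under it, and these probe sets gave no ratio.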

Other observations

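Loci related to the members were read as values. The TYRO3 pseudogene TYRO3P had signals of 4.3 and 6.6 with gefitinib and 26.2 and 1.7 with DMSO at its 2 probe sets. GAS6-AS1, the antisense transcript of GAS6, had 89.1 and 12.5 with gefitinib and 49.1 and 6.2 with DMSO at 238127_at and 238097_at. All of these were below the floor of 100 on both arrays.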
